A study of Mus musculus with 7 samples.

Results

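The 7 genes described here handle cholesterol in the liver: Hmgcs1, Idi1 and Sqle encode enzymes of its synthesis, Srebf2 encodes the transcription factor SREBP-2, Stard4 encodes a carrier that moves cholesterol between membranes inside the cell, and Abcg5 and Abcg8 encode the paired subunits of a pump that sends sterols into bile. They were found on the array through the RefSeq accession of each probe, which gave 9 probes for the 7 genes, out of 39429 probes for 32451 genes. Liver total RNA came from 3 male C57/BJ mice fed the high-fat diet (HFD) D12331 and 4 fed control chow. Both diets began at 6 weeks of age and ran for 20 weeks, so all livers were taken at 26 weeks. Each sample was hybridised to its own 1-colour array, a field of spots on a glass slide. The brightness of a spot follows the amount of 1 labelled transcript. The labels do not say which animal a sample came from, so p-values measure the spread between these samples.

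Cells hold their cholesterol steady through a pair of opposed switches. When sterols in the endoplasmic reticulum run low, SREBP-2 is released, cut and carried to the nucleus, where it turns on the synthesis enzymes, the LDL receptor and Stard4. When oxidised sterols build up, the nuclear receptor LXR turns on genes of efflux, among them Abcg5 and Abcg8, and the liver disposes of cholesterol into bile.

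The deposited measurements are of 2 kinds, and they cover these genes unevenly. A table of processed log2 values holds 1488 of the 32451 genes, 4.59% of them, for all 7 samples, and 2 of the 7 members, Stard4 and Abcg5, are in it. Scanner files hold all 9 probes. The HFD files followed their own columns of the table (Pearson r across probes of at least 0.9999), whereas the files labelled chow followed theirs with r of at most 0.589, and of 18 hepatocyte marker genes 6 failed to exceed background on every one of them. The HFD arrays each detected all 18. Diet was therefore compared in the table alone, and for Abcg8, Hmgcs1, Sqle, Idi1 and Srebf2 only HFD levels are given. HFD replicate 1 had a negative control signal out of the scanner software's range (46.9, against 29.9 and 30.8 in HFD replicates 2 and 3). Each HFD array lay on its own slide, and 57.0%, 62.3% and 66.8% of spots were well above background in HFD replicates 1 to 3.

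The starts of Abcg5 and Abcg8 lie head to head, and the stretch between them is shown because 1 short interval lies before both genes. It spans 109 bases (chr17:84683012-84683120, plus strand, RefSeq on GRCm38.p6). The capitals mark matches to the GATA box AGATAA, searched on both strands.
Abcg5-Abcg8 interval: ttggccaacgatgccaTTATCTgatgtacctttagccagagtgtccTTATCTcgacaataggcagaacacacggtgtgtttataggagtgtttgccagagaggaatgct
The interval held 2 GATA matches, both on the minus strand, whose first bases lie 93 and 63 bases before the start of Abcg8. Of 32851 promoter windows of the same length, 4.0% held at least 1. Upstream stretches of 2 synthesis enzymes and of Srebf2 are shown for the motifs of sterol control. They run 250 bases up to the start, at chr13:119690101-119690350 for Hmgcs1, chr13:8885356-8885605 for Idi1 and chr15:82147019-82147268 for Srebf2, all on the plus strand. The capitals mark the core of the sterol regulatory element, TCACNCCA, to which SREBP-2 binds, and the CCAAT box, bound by the factor NF-Y, both searched on either strand.
Hmgcs1: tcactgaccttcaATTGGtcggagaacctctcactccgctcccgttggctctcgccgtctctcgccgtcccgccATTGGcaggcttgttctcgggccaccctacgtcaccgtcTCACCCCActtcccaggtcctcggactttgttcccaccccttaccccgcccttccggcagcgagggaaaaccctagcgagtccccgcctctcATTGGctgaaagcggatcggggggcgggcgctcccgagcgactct
Idi1: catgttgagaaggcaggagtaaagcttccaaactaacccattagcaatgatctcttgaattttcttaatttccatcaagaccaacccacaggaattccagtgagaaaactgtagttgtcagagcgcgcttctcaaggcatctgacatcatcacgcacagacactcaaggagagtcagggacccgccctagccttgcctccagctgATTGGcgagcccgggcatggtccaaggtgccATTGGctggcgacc
Srebf2: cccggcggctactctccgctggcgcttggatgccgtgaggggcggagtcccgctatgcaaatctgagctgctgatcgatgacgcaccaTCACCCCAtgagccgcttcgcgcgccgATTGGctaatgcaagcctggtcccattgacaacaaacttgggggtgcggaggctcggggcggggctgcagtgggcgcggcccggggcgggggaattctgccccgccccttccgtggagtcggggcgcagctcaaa
Hmgcs1 held 1 sterol element core, 137 bases before its start, and 3 CCAAT boxes. Srebf2 held 1 core, 162 bases before its start, and 1 CCAAT box, and Idi1 held 2 CCAAT boxes and no core. Of all 32851 windows of 250 bases, 3.7% held the core and 33.8% a CCAAT box. A match is a run of letters, not a measured site.

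The comparison of diets asked which liver transcripts differ after 20 weeks of HFD. Stard4 was lower in HFD livers, and Abcg5 had a higher mean that did not pass the test. On the table's log2 scale Stard4 read 7.50, 7.55 and 7.74 in HFD replicates 1 to 3, against 8.47, 8.19, 8.25 and 8.20 in chow replicates 1 to 4. Every HFD value lay below every chow value, with a gap of 0.45 between the nearest samples. The groups overlap at none of the table's probes, so this separation is shared by all of them and adds no support. The means were 7.59 ± 0.12 in HFD (SD, n = 3) and 8.28 ± 0.13 in chow (SD, n = 4). The difference, HFD minus chow, was -0.68 with an SE of 0.11 and a 95% interval of -0.95 to -0.41, which makes Stard4 1.60-fold lower in HFD (limma, adjusted p = 0.0421, with Benjamini-Hochberg adjustment over all 32451 genes). The call did not hold without HFD replicate 1 (adjusted p = 0.107), HFD replicate 2 (0.190) or chow replicates 1 to 4 (0.0973, 0.0904, 0.112 and 0.103), and held without HFD replicate 3 (0.0371). The difference itself stayed between -0.75 and -0.62.

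Abcg5 read 14.05, 14.10 and 14.08 in HFD livers, against 13.54, 13.49, 12.98 and 12.81 in chow livers. The HFD values lay within 0.05 of each other, while the chow values fell into a higher pair and a lower pair. The means were 14.08 ± 0.03 in HFD (SD, n = 3) and 13.20 ± 0.37 in chow (SD, n = 4). The HFD spread was smaller than that of all but 1.68% of the table's genes, and 86.5% of them had a smaller chow spread than Abcg5. On the HFD scanner arrays, each scaled to its 75th percentile, the SD of Abcg5 was 0.11. There 24.8% of detected genes had a smaller SD, so the narrow HFD spread depends on the scaling. HFD minus chow was 0.87, with an SE of 0.20 and a 95% interval of 0.41 to 1.34, a 1.83-fold difference that did not pass (limma, adjusted p = 0.0782). It lay between 0.74 and 0.98 when any 1 sample was left out, and passed in none of these fits (adjusted p of 0.113 to 0.307).

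The same table held some markers of cell types, and every gene in it had been selected for a difference between the groups. It held 4.59% of all genes. Of its genes 22.4% passed as higher in HFD and 17.8% as lower. It held 3 of 18 hepatocyte markers, all with lower HFD means (median difference -1.36), of which 1 passed, and 3 of 13 macrophage markers, all of which passed as higher in HFD (median difference 2.35). It held 3 of 11 stellate cell markers, all with higher HFD means of which none passed, 1 of 8 blood cell markers, and none of those of endothelial cells, cholangiocytes, lymphocytes or adipocytes. Of 6 adipocyte markers, Adipoq and Ucp1 were not detected on any HFD array, and 2 others were detected on 2 or more of these arrays. In whole liver, fewer cells of a type and less RNA per cell cannot be told apart, and the part of cell makeup in the differences of Stard4 and Abcg5 was not tested.

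**Figure D1:**
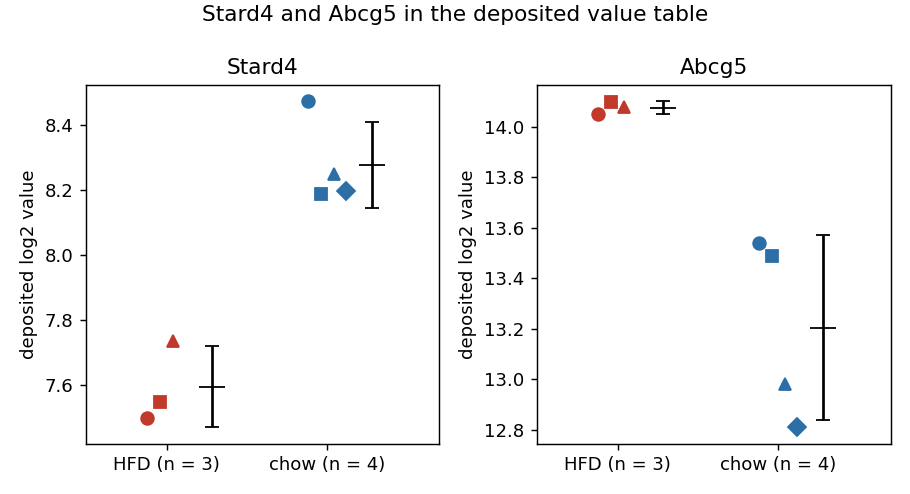
Deposited log2 values of Stard4 and Abcg5, 1 symbol per sample (circle, square, triangle and diamond for replicates 1 to 4), HFD at the left and chow at the right, with the mean and SD as a black bar beside each group; the axes do not start at 0. The HFD values of Stard4 (7.50 to 7.74) lie below all chow values, and those of Abcg5 (14.05 to 14.10) lie above them and close together. No probe of the table has groups that overlap.

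1 of the 7 members passed, as lower in HFD, and none passed as higher. Across the array 598 genes passed, 1.84% of all genes and 40.2% of those in the table; 0.817% of all genes and 17.8% of table genes passed as lower, and 1.03% and 22.4% as higher. With each column centred on its median, 186 genes passed as higher and 608 as lower, against 333 and 265 with the values as deposited, because the HFD column medians lay 0.21 above those of chow on average. Relative to that shift, Stard4 differed by -0.89 and Abcg5 by 0.66, with the same directions. The table holds no probe at which the groups overlap and no gene with a difference under 0.33, so it was selected on this comparison and its p-values are not independent evidence. The size of the change of Stard4 exceeded that of 36.0% of table genes, and that of Abcg5 exceeded 54.0%. All HFD scans share 1 day, and when the arrays behind the chow columns were scanned is unknown, so scan day and diet cannot be told apart.

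Stard4 is measured by 2 probes of the same transcript accession, and the table holds only the dimmer of them, A_52_P561205. On the HFD scanner arrays this probe read 222, 176 and 220 units of processed signal. The other probe, A_52_P384574, read 4292, 3658 and 3812. Both were well above background on all 3 arrays. The difference between diets described above thus rests on the dimmer probe alone. The brighter one has no usable chow value, so no diet comparison could be made with it. The table holds no probe at which the groups overlap, and why it leaves out the brighter probe is not known. This limits what the call says of the Stard4 transcript.

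By the likeness of their values over the 7 columns, each centred on its mean, the 3 table genes nearest to Stard4 were Nr5a2, which encodes a nuclear receptor of bile acid and cholesterol genes in liver, Rpl27a, a ribosomal protein gene, and Rnaseh2a, a subunit of an RNA-cutting enzyme. Their root mean square differences from Stard4 were 0.06, 0.07 and 0.07, against a median of 0.61 over all named table genes. Their HFD minus chow differences were -0.63, -0.60 and -0.59. The 3 nearest to Abcg5 were Spc24 of the kinetochore, Gys2, the liver glycogen synthase, and Rasgrp2, an activator of small GTPases, with root mean square differences of 0.14, 0.14 and 0.15 against a median of 0.69. These genes had all been selected for a difference between the same 7 samples, so the likeness is a description.

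Beyond the members, 85 genes of cholesterol handling, grouped by role, were looked up, and 6 were in the table. 1 of the 85, Stard4, passed. With columns centred on their medians 4 passed, all as lower in HFD: Stard4, Fdft1 (limma, adjusted p = 0.0315), Gramd1c (0.0425) and Lcat (0.03503). The same centring called 608 of the 1488 table genes lower and 186 higher. The shared direction is therefore not read as a result about cholesterol genes. Of 23 genes of synthesis 1 was in the table: Fdft1, squalene synthase, whose table probe read 4.31, 4.35 and 4.32 in HFD livers, against 4.97, 5.03, 5.33 and 5.71 in chow livers. These HFD values are near the bottom of the scale, the probe exceeded background in 2 of 3 HFD livers, and the difference of -0.94 did not pass (limma, adjusted p = 0.0570), though it did with the prior taken from the table (0.0407) and after quantile normalization (0.0386). A second probe of Fdft1 was not in the table. Of 15 genes of regulation the table held Mylip, an LXR target whose product marks the LDL receptor for degradation, at 9.60 ± 0.04 in HFD (SD, n = 3) and 9.12 ± 0.13 in chow (SD, n = 4), which did not pass (limma, adjusted p = 0.0710). With columns centred on their medians its difference was 0.27, against 0.48 as deposited.

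Of 15 genes of transport inside the cell it held Stard4 and Gramd1c, a sterol carrier of membrane contact sites, at 12.90 ± 0.18 in HFD (SD, n = 3) and 13.47 ± 0.12 in chow (SD, n = 4). Of 6 genes of esterification it held Lcat, which esterifies cholesterol on plasma lipoproteins, at 12.24 ± 0.13 in HFD (SD, n = 3) and 12.89 ± 0.19 in chow (SD, n = 4). Neither passed with the values as deposited (limma, adjusted p = 0.0686 for Gramd1c and 0.0621 for Lcat). Gramd1c passed without HFD replicate 3 (limma, adjusted p = 0.0458), and Lcat with the prior taken from the table (0.0455). Of 7 genes of efflux the table held Abcg5, and it held none of 7 genes of uptake and none of 12 genes that turn cholesterol into bile acids.

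Sorted by the factor that controls them, the table held 2 of 25 SREBP-2 target genes, Stard4 and Fdft1, both with lower HFD means (median difference -0.81), and 5 of 14 LXR target genes, all with higher HFD means (median difference 1.18). The median over all table genes was 0.44, and 801 of the 1488 had higher HFD means. The table holds 4.59% of all genes. Both SREBP-2 targets are in it only by the dimmer of their 2 probes, and that of Fdft1 read near the bottom of the scale. Of the LXR targets, Srebf1, the regulator of fatty acid synthesis, and Pltp, which transfers phospholipids between lipoproteins, passed as higher. Across the array, 1.03% of all genes and 22.4% of table genes passed as higher. Pltp was at 11.30 ± 0.23 in HFD (SD, n = 3) and 10.12 ± 0.28 in chow (SD, n = 4), 2.27-fold higher (limma, adjusted p = 0.0354), and Srebf1 was 3.22-fold higher (limma, adjusted p = 0.0216). With 1 sample left out, Pltp passed in 1 of 7 fits and Srebf1 in 3 of 7. The members of both lists that were not in the table have no usable chow value, so these counts say nothing of them.

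**Figure D2:**
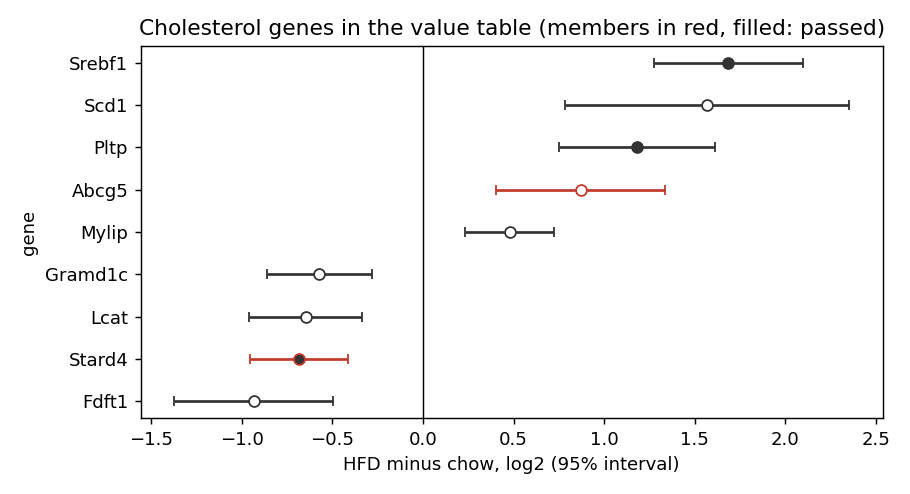
HFD minus chow difference on the log2 scale for the 9 cholesterol-related genes of the value table, from the highest at the top to the lowest, with 95% intervals not adjusted for multiple testing; members are red and filled symbols passed at an adjusted p under 0.05. Stard4 (-0.68), Pltp (1.18) and Srebf1 (1.69) passed, and Abcg5 (0.87) and the other 5 did not.

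The remaining members are described within the HFD livers, as log2 of the processed signal minus the 75th percentile of the array, so that 0 is the brightness of that percentile. All 9 member probes were well above background on all 3 HFD arrays. Hmgcs1, which makes the HMG-CoA that feeds the pathway, was at 5.61, 5.54 and 4.998 in HFD replicates 1 to 3 (5.38 ± 0.34, SD, n = 3). Sqle, squalene epoxidase, was at 3.44, 3.11 and 2.73 (3.09 ± 0.36, SD, n = 3). Idi1, which isomerises the isoprenoid building block, was at 3.74, 4.02 and 3.37 (3.71 ± 0.32, SD, n = 3). Each enzyme was lowest in replicate 3, and the livers spanned 1.53-fold for Hmgcs1, 1.64-fold for Sqle and 1.56-fold for Idi1. Between 73.0% and 76.7% of 19523 detected genes had a smaller SD over the HFD arrays than these 3, the median SD being 0.19.

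Srebf2 was measured by 2 probes, and both were highest in HFD replicate 1 and lowest in replicate 3. The brighter, A_51_P377508, was at -1.47, -1.67 and -1.73 (-1.62 ± 0.13, SD, n = 3). The dimmer, A_55_P2000487, was at -3.19, -3.78 and -3.80 (-3.59 ± 0.35, SD, n = 3). The span was thus 1.19-fold by the brighter probe and 1.53-fold by the dimmer one, whose mean was -2.58 with another background correction.

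The pump and the carrier did not share the low value of replicate 3. Abcg5 was at 4.19, 4.37 and 4.38 (4.32 ± 0.11, SD, n = 3) and Abcg8 at -0.89, -0.59 and -0.62 (-0.70 ± 0.16, SD, n = 3), both lowest in replicate 1, with spans of 1.14-fold and 1.23-fold. Of all 19523 detected genes 44.6% were lowest in replicate 1, the commonest place for the low value, so nothing is read from it for these genes. Stard4 was lowest in replicate 1 too by both probes, at 2.14, 2.27 and 2.19 by the brighter and at -2.13, -2.10 and -1.92 by the dimmer one.

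**Figure D3:**
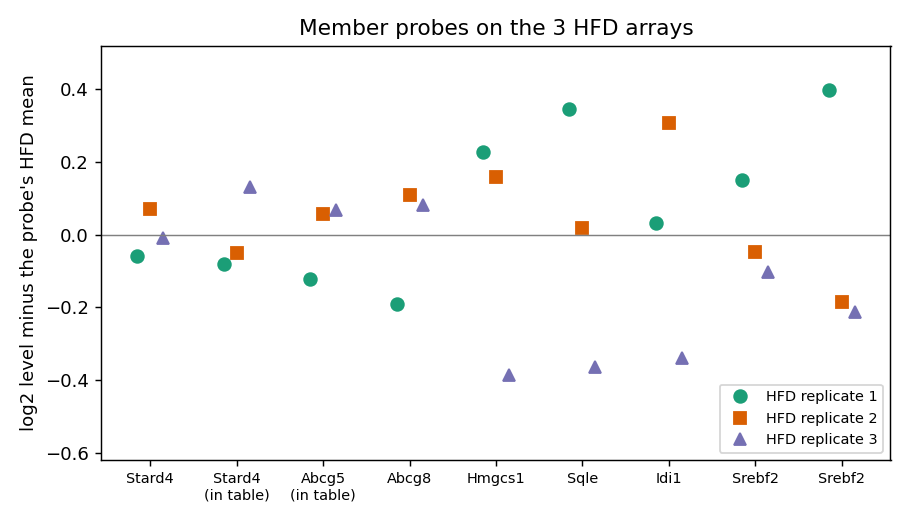
Level of each member probe on the 3 HFD arrays (circle, square and triangle for replicates 1 to 3), as the log2 difference from that probe's mean over the arrays; Stard4 and Srebf2 have 2 probes each, the brighter at the left, and probes of the value table are marked. Hmgcs1, Sqle, Idi1 and both Srebf2 probes are lowest in replicate 3, while the Stard4, Abcg5 and Abcg8 probes are lowest in replicate 1.

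The low values of replicate 3 extended over the SREBP-2 target genes. Of 24 such genes that 2 or more HFD arrays detected, 22 were lowest in replicate 3, against 28.5% of all 19523 genes. Among them were 4 of 5 members and 18 of 19 other genes, the exceptions being Stard4 and Ebp, an enzyme of a late step. The median difference over the 24 genes was 0.38 for replicate 1 minus replicate 3 and 0.34 for replicate 2 minus replicate 3, against -0.08 and -0.01 over all genes. With 3 livers, each on its own slide, liver and slide cannot be told apart, and this is a description of these samples. Under other scalings and background corrections of the same arrays the count lay between 20 and 23. The share of all genes lowest in replicate 3 lay between 28.8% and 34.8% under these alternatives.

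Marker genes of cell types also differed between these livers, where liver and slide again cannot be told apart. Of 13 macrophage markers 12 were highest in replicate 1 and 8 lowest in replicate 3, with summed levels (in units of each array's 75th percentile) of 109.6, 54.7 and 55.4 in replicates 1 to 3. Of 18 hepatocyte markers 17 were lowest in replicate 1, with sums of 3701, 5321 and 5149.8. Among all 19523 detected genes, 29.5% were highest in replicate 1, 44.6% lowest in replicate 1 and 28.5% lowest in replicate 3. The SREBP-2 targets summed to 408, 448 and 358. Markers of 3 other cell types were also mostly lowest in replicate 3: 8 of 11 stellate cell markers, with sums of 134.5, 135.2 and 109.0, 7 of 10 endothelial markers, with sums of 37.7, 43.5 and 35.6, and 5 of 6 detected cholangiocyte markers, with sums of 8.53, 4.11 and 2.39. Of the detected lymphocyte and blood cell markers 3 of 7 each were lowest there, with sums of 11.2, 18.3 and 17.8 for lymphocytes and 52.7, 78.1 and 79.6 for blood cells. The 2 adipocyte markers that 2 or more HFD arrays detected were both lowest in replicate 1, with sums of 0.78, 9.12 and 5.62. Every macrophage and hepatocyte marker was detected on at least 1 HFD array. The part of cell makeup in the members' levels was not tested.

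**Figure D4:**
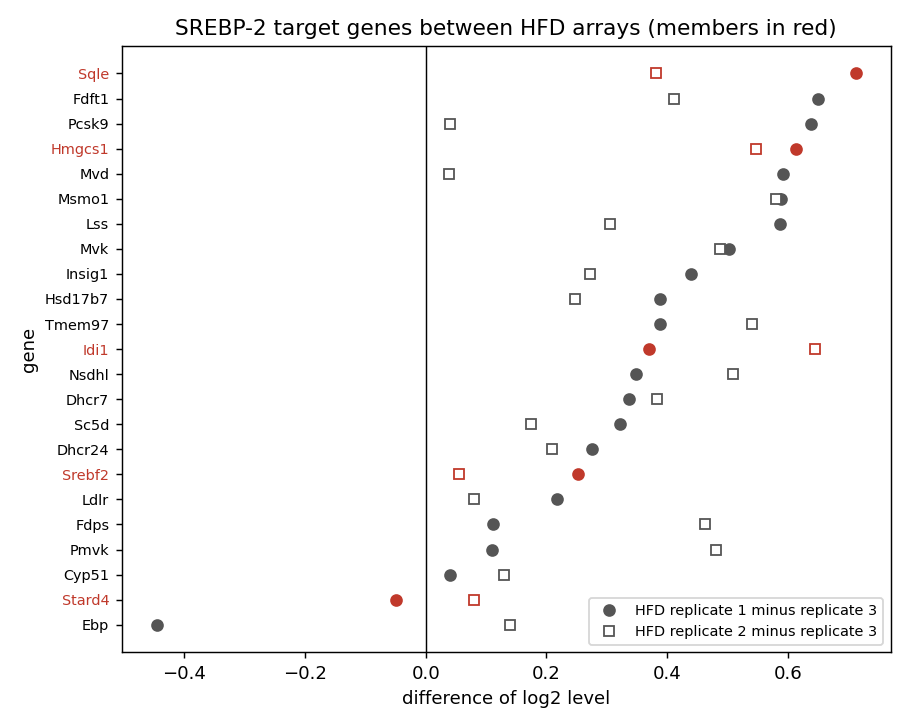
Differences of log2 level between HFD livers for 23 SREBP-2 target genes, replicate 1 minus replicate 3 as filled circles and replicate 2 minus replicate 3 as open squares; members are red, and genes are ordered by the circles. The squares lie above 0 for all 23 genes drawn and the circles for all but Stard4 and Ebp. Each liver was measured on its own slide.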

How the data were processed

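Per the labels' protocols, each liver RNA sample was labelled with Cy3 and put on an Agilent mouse array. Spot intensity values in the deposited scanner files are background-subtracted processed signals and raw median and background signals, from Agilent Feature Extraction 10.7.3.1 per the file headers (9.1 per the submitters' processing notes). The authors also deposited log2 values for 1615 probes. Their scaling is not given in the sources used here; column medians ran from 9.55 to 9.85. The HFD columns rise with the scanner signal. The chow columns did not follow the files labelled chow, so their scale stays unknown.

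Of 39429 probes, 27234 were named through RefSeq accessions (GRCm38.p6 gene table, names only). Control spots and spots flagged as outliers were left out and spots of a probe averaged on the log2 scale; the table probe with the highest mean stood for a gene. The table was fitted with limma 3.58.1 in R 4.3.3, with variances moderated toward a prior (0.0361, 2.13 degrees of freedom) from the 19523 genes that 2 or more HFD arrays detected, and genes outside the table were counted as not called in the Benjamini-Hochberg adjustment. The procedure was tested on simulated data. HFD levels are log2 signals minus the array's 75th percentile. Promoter windows were searched for exact letters. Named genes were the members, the genes of the cholesterol lists that the table holds, and the 3 table genes nearest to each table member; other SREBP-2 targets, Ebp among them, were named after their values were seen. 1 gene of that list is counted but not reported by name here. Members and lists were chosen with earlier results of these data known. Alternatives were other priors, scalings, probe rules and background corrections, and leaving out each sample. The number of arrays limits the precision.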

Additional observations from a re-analysis of the deposited data

Results flagged for a closer look

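In the scanner files labelled chow, which did not match the table's chow columns and enter no comparison, 7 of the 9 member probes were well above background on 4 of 4 files: both Stard4 probes, both Srebf2 probes, Hmgcs1, Sqle and Idi1. The Abcg5 probe was well above background on 0 of these files. The Abcg8 probe was so on 0 of the files once a spot flagged as an outlier on 1 of them was set aside. Among the table genes named here, no single chow value stood apart from the other 3 by Dixon's test at the 95% level.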

How the results depend on the processing

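Leaving out 1 sample gave between 0 and 372 genes higher and between 0 and 338 lower in HFD; the counts were 0 and 0 without chow replicate 1, and 372 and 338 without HFD replicate 3, against 333 and 265 with all samples. With the prior taken from the table itself 552 genes were higher and 474 lower, with columns centred on their medians 186 and 608, with quantile normalization 285 and 520, and with adjustment over the table alone 801 and 687, which is every gene it holds. A replicate block over the shared numbers gave 0 and 0 genes; Stard4 then differed by -0.71 (limma, adjusted p = 0.315) and Abcg5 by 0.74 (0.363). The deviations of same-numbered samples correlated at -0.10, 0.14 and 0.03, and those of other-numbered samples at -0.16 to 0.14. The same-numbered values lay within the range of the others, and so few cannot settle whether the numbers pair the samples. Stard4 ranged from -0.75 to -0.62 when 1 sample was left out, where it passed in 1 of 7 fits. With the prior, scaling, probe rule or adjustment changed it ranged from -0.89 to -0.68 and passed each time. The probe rule left its value unchanged, as the table holds 1 Stard4 probe, and adjustment over the table alone called every gene. Those 2 settings therefore did not test the call. Abcg5 (0.87) passed only with adjustment over the table alone (limma, adjusted p = 0.00359). The median HFD level over the member probes, 2.20, was 1.87 with normexp background correction, 5.75 with median scaling and 0.39 with the percentile taken over bright probes. No direction reversed. The count of SREBP-2 targets lowest in HFD replicate 3 was recomputed with alternatives chosen after seeing the data. A block for slide or scan day was not run, because the slides and scan days behind the table's chow columns are not known.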
